A study of Mus musculus with 36 samples.

Results

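Messenger RNA of 10 amino acid transporter genes was followed in mouse embryonic fibroblast (MEF) lines with and without a Tbk1 knock-in allele. The genes, chosen by name with earlier results of these data known, were Slc3a2, Slc7a11, Slc7a5, Slc7a6, Slc7a1, Slc7a3, Slc38a2, Slc1a4, Slc1a5 and Slc6a9. They are 10 of the 49585 genes listed in each library. All 10 were abundant enough to be tested, among 13364 genes tested in all. The study compared 3 wild-type lines (WT: E1.5, then E2.1, then E2.7), 4 heterozygous lines (het: E1.3, then E2.5, then E2.6, then E2.8) and 3 homozygous lines (hom: E1.4, then E2.2, then E2.9), the allele being N129D in the series text and genotype labels and N129D1 in the sample titles. Each line gave 1 untreated library, 1 library after 4 h with poly(I:C) (labelled pI:pC), a synthetic RNA duplex that mimics viral RNA, and 1 library after 4 h with antimycin and oligomycin (AO). Antimycin blocks complex III of the respiratory chain and oligomycin blocks the mitochondrial ATP synthase. For E1.5 there were also 6 libraries labelled with a cell density, high or low, 1 per density and treatment. The labels name no drug dose, no embryo age and no sequencing batch, and do not state whether each line came from a separate embryo, so p-values measure the spread between these lines.

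Amino acid transporters of the SLC families carry amino acids across the plasma membrane, and many of their genes are transcribed more when cells sense a shortage of amino acids or damage to mitochondria or to the endoplasmic reticulum. In that pathway, the integrated stress response, kinases phosphorylate the initiation factor eIF2, most protein synthesis slows, and the transcription factor ATF4 is made and binds C/EBP-ATF response elements in its target genes. Slc7a11 is also a known target of NRF2, the transcription factor of the oxidative stress response, which binds antioxidant response elements. The protein of Slc3a2 is a heavy chain that brings several SLC7 light chains to the cell surface. Its partners here are the products of Slc7a11, which exchanges cystine for glutamate and feeds glutathione synthesis, of Slc7a5, which carries leucine and other large neutral amino acids, and of Slc7a6, which exchanges arginine or lysine for glutamine. Slc7a1 and Slc7a3 encode cationic amino acid carriers that work without the heavy chain. Slc38a2 and Slc1a5 take up glutamine and other neutral amino acids with sodium, Slc1a4 carries serine, alanine and cysteine, and Slc6a9 carries glycine.

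The genes lie on 9 chromosomes of GRCm38 (GENCODE vM21), among them Slc3a2 at chr19:8706882-8723369, Slc7a11 at chr3:49892526-50443614, Slc1a4 at chr11:20302180-20332713 and Slc7a1 at chr5:148327410-148399904, all on the minus strand. Promoter windows, 250 bases before to 50 after a RefSeq start site on GRCm38.p6, were at hand for 7 of the 10 genes (11 windows); those of Slc7a5, Slc7a3 and Slc1a5 were not. The letters TGATGNAA, written after the C/EBP-ATF response element and searched on both strands, occurred in the windows of Slc7a11 and Slc1a4. They occurred in 3.97% of all 32817 windows. In Slc7a11 there were 2 matches, TGATGCAA at -66 to -59 and the reverse-strand match TTGCATCA at -47 to -40, and in Slc1a4 there was 1 match, TTGCATCA, across the start site at -4 to 4. The letters TGACNNNGC, written after the antioxidant response element, occurred in windows of Slc6a9, Slc7a1, Slc7a6 and Slc38a2, and in 12.4% of all windows. No match of one motif overlapped a match of the other in these genes, and a match is a run of letters, not a shown binding site. Stretches upstream of a RefSeq start site of 3 genes described below are shown to set the matches beside the measured changes: Slc7a11 with its pair of matches (chr3:50443614-50443733), Slc1a4 with its match at the start (chr11:20332704-20332833) and Slc3a2, whose window held neither motif (chr19:8713898-8714017). The start site used for Slc3a2 lies within the gene span given above, and no window at the outer end of that span was searched. The 3 stretches are from the minus strand, written from the transcribed direction, with matches to TGATGNAA in capitals.
Slc7a11: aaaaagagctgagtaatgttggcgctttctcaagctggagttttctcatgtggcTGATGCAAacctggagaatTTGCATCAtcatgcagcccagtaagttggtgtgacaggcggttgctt
Slc1a4: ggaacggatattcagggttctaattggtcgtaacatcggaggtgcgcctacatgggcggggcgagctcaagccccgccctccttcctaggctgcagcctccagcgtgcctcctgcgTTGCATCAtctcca
Slc3a2: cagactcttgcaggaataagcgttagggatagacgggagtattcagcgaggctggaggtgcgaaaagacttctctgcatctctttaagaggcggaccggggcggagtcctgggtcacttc

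The 30 libraries that carry no density label held between 3689144 and 14879227 counts each, the high-density ones between 16474011 and 22756870, and the low-density ones between 5391393 and 6307963. The 8 fibroblast markers (Col1a1, Col1a2 and others) summed to 1764 to 6859 CPM (counts scaled to the library size) in all 30 libraries, and to less under AO (1764 to 3689) than untreated (3179 to 6162) in 10 of 10 lines. This sum was mostly collagen, with Col1a1 at 794.6 to 3898 CPM and Col1a2 at 585.1 to 2399. Dcn, Pdgfra and Lum reached at most 53.49, 35.48 and 3.65 CPM. The fall is that of the sum, and changes of its single markers are not given. Under AO the chondrocyte sum (4 genes) was also lower in 10 of 10 lines (42.2 to 184 against 56.5 to 221), the macrophage sum (10 genes) lower in 9 and the epithelial sum (5 genes) lower in 9, while the endothelial sum (5 genes) was higher in 10 of 10 (12.5 to 33.7 against 4.24 to 21.5). The fibroblast, chondrocyte and endothelial sums were each higher under poly(I:C) in 9 of 10 lines. Within the endothelial sum Kdr ran from 2.13 to 32.4 CPM and Tek reached 4.275 CPM. Pecam1, Cdh5 and Cldn5 were each at most 0.722 CPM, so that sum rested mainly on Kdr and Tek. The part of these sums in the results below was not tested. Tbk1 mRNA was at 45.4 ± 5.59 CPM (SD, n = 3) in untreated WT, 48.8 ± 0.973 (n = 4) in het and 45.1 ± 3.99 (n = 3) in hom lines; gene counts do not show which allele a read came from. A pair of lines stood apart. Hom line E1.4 was the lowest or highest of the 10 untreated lines for 52.3% of genes and het line E2.6 for 33.2%, against 11.3% to 22.8% for the other 8 lines. In E2.6, 10 macrophage markers such as Lyz2 and Csf1r (none at 0 in that line) summed to 26.9 to 44.1 CPM, against 125 to 203 in hom line E2.9 and 1.65 to 9.07 in the other 8 lines. Chondrocyte markers, mostly Col2a1, summed to 184 to 221 CPM in E2.6 and to 42.2 to 207 elsewhere, and the endothelial marker Kdr was at 19.02 to 32.41 CPM in E2.6 with Cldn5 at 0. The chondrocyte marker Sox9 was not high in E2.6. It was at 15.04 to 29.97 CPM there, 31.53 to 52.73 in E1.4 and 15.96 to 54.28 in the other 8 lines. In bulk RNA, fewer cells of a type and less RNA per cell cannot be told apart. For the responses averaged over genotypes, the AO response in each genotype and the genotype comparisons, values without E2.6 and E1.4 are therefore given too.

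In untreated cells the heavy chain and its leucine-carrying partner led. Between genes, levels were compared as CPM per kilobase of exon, as mean ± SD over the 10 lines. Slc7a5 was at 80.7 ± 16.4 CPM per kilobase and Slc3a2 at 79.4 ± 17.2, which did not differ beyond their spread, followed by the glutamine carrier Slc38a2 at 49.7 ± 5.89. The next 6 genes followed closely, each within 1 SD of the next: Slc1a5 (24.6 ± 4.75), Slc7a6 (23.3 ± 2.38), Slc1a4 (22.2 ± 5.29), Slc7a1 (18.8 ± 4.49), Slc7a3 (18.6 ± 6.99) and Slc6a9 (15.6 ± 4.98). Slc7a11 was lowest at 4.79 ± 1.67 CPM per kilobase, and its highest line, at 6.41, lay above only 1 line of Slc6a9, E2.6 at 1.78. Under AO Slc3a2 came first at 236 ± 51.1 CPM per kilobase, ahead of Slc7a5 (156 ± 23.9), Slc38a2 (92.3 ± 11.96), Slc7a1 (52.4 ± 11.5) and Slc1a4 (46.0 ± 5.29). Slc7a3 (33.5 ± 10.9), Slc1a5 (31.7 ± 5.96) and Slc6a9 (29.9 ± 9.16) did not differ beyond their spread, Slc7a6 was at 23.4 ± 3.05, and Slc7a11 was again lowest at 12.5 ± 2.82. These scaled lengths do not remove differences in how well each transcript is captured.

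**Figure D1:**
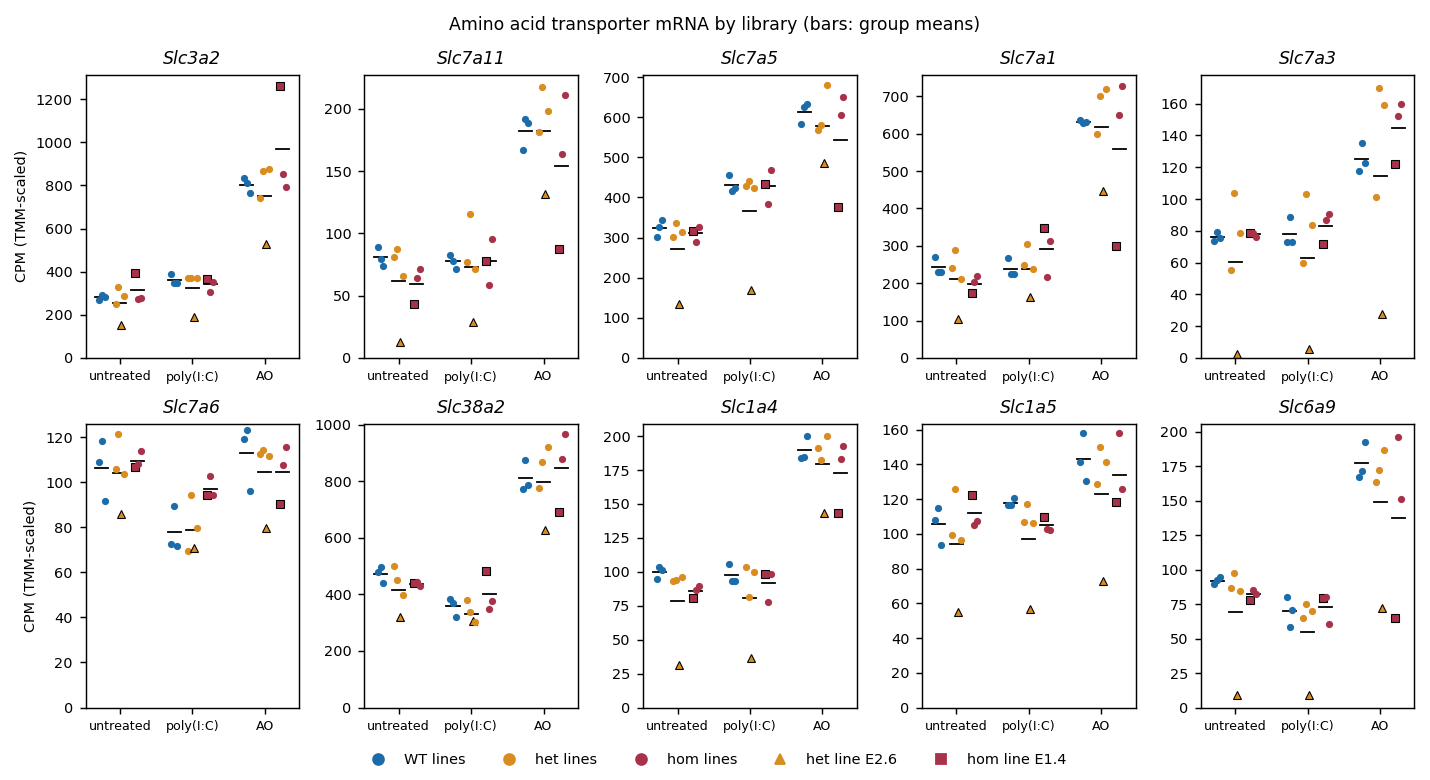
mRNA level (CPM scaled by TMM, the library scaling of edgeR, linear axis from 0) of each of the 10 transporter genes in 30 libraries, by treatment, with WT, het and hom lines in blue, orange and red and black bars for group means. AO libraries lie above untreated ones for Slc3a2, Slc7a5, Slc7a1, Slc38a2 and Slc1a4, Slc7a6 does not follow, and het line E2.6 (triangles) is the lowest untreated line for each gene.

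Under AO, 8 of the 10 transporter mRNAs rose when the response was averaged over the 3 genotypes, against a background of 17% of all genes tested, and none fell, against 16.7% of all genes. Because the 10 genes were chosen with earlier results of these data known, their counts here and below are descriptions. The median log2 change of the 10 genes was 0.94, and that of all 13364 genes was -0.02. The mRNA of the heavy chain Slc3a2 had the largest change, 2.97-fold, and those of Slc7a1, Slc7a11 and Slc1a4 rose 2.78-, 2.59- and 2.06-fold. Slc7a3 did not pass and Slc7a6 stayed near its untreated level. Tests are those of edgeR's quasi-likelihood fit over all 13364 genes with Benjamini-Hochberg adjusted p under 0.05 and no fold limit. With the line as a block, which compares each line with itself, 9 of 10 passed against a background of 23.5%. Without E2.6 and E1.4, 9 of 10 passed as well, against 22%; Slc7a6 was the gene that did not pass in either. Without these lines the log2 changes were 1.54 ± 0.056 (SE) for Slc3a2, 1.51 ± 0.085 (SE) for Slc7a1, 1.33 ± 0.11 (SE) for Slc7a11, 1.01 ± 0.056 (SE) for Slc1a4 and 0.96 ± 0.053 (SE) for Slc7a5. Those of Slc38a2, Slc7a3, Slc1a5 and Slc7a6 were then 0.93 ± 0.062 (SE), 0.86 ± 0.13 (SE), 0.41 ± 0.065 (SE) and 0.043 ± 0.074 (SE).

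**Figure D2:**
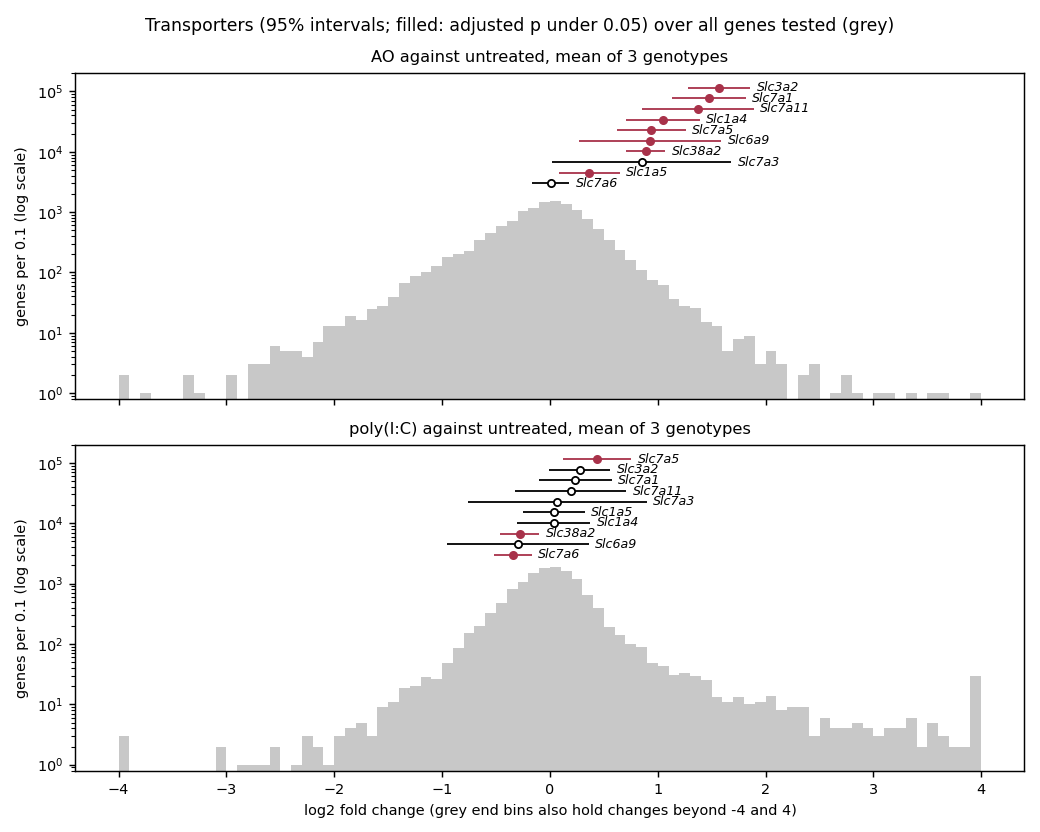
Log2 fold change of the 10 transporter mRNAs (points with 95% intervals, filled red where adjusted p is under 0.05) under AO (top) and poly(I:C) (bottom), averaged over 3 genotypes, above a grey histogram of all 13364 genes on a log count axis. Under AO 8 points are filled, from Slc1a5 at 0.36 to Slc3a2 at 1.57, and under poly(I:C) 3 are filled, Slc7a5 at 0.44 on the right and Slc38a2 and Slc7a6 at -0.28 and -0.34 on the left.

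Slc3a2, the heavy chain, had the narrowest range of within-line changes among the 8 mRNAs that rose. In the order of lines given above, untreated cells had 270, 292 and 281 CPM in the WT lines, 248, 330, 151 and 286 in the het lines, and 392, 273 and 278 in the hom lines. AO-treated cells had 834, 812 and 763 CPM in the WT lines, 739.7, 867, 528 and 874 in the het lines, and 1259, 851 and 795 in the hom lines. Every AO value exceeded every untreated value, E2.6 was the lowest line in both conditions and E1.4 the highest. On the log2 scale the mean change was 1.57 ± 0.14 (SE), adjusted p = 8.82e-09, and within lines it ran from 1.39 to 1.81. Its promoter stretch, shown above and taken at a start site within the gene span, held neither searched motif.

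Slc7a11, the light chain that imports cystine, was low at rest. Its untreated values were 89.3, 79.2 and 73.6 CPM in the WT lines, 81.0, 87.2, 12.6 and 65.7 in the het lines, and 43.4, 64.0 and 71.4 in the hom lines. Under AO they were 167, 192 and 189 CPM in the WT lines, 182, 217, 132 and 198 in the het lines, and 87.4, 164 and 211 in the hom lines. Each line was higher under AO than untreated, but the ranges met, since E1.4 under AO lay below the highest untreated line, E1.5. The mean change was 1.37 ± 0.25 (SE), adjusted p = 0.000146. E2.6, at 105 counts untreated, moved by 3.36 on the log2 scale, against 0.90 to 1.59 in the 8 lines other than E2.6 and E1.4.

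Slc7a5, the leucine carrier, had 302, 327 and 345 CPM in the WT lines, 301, 337, 134 and 314 in the het lines, and 316, 288 and 327 in the hom lines when untreated. Under AO it had 583, 624 and 634 CPM in the WT lines, 569, 579.8, 486 and 679 in the het lines, and 377, 605 and 650 in the hom lines. The AO values all lay above the untreated ones, and E1.4 was the lowest AO line. On average it changed by 0.94 ± 0.15 (SE), adjusted p = 4.16e-05. Line E1.4 moved by 0.26 and E2.6 by 1.86 on the log2 scale, with 0.78 to 1.11 in the other 8 lines.

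Slc7a6, the remaining partner of the heavy chain, ran from 85.9 to 121 CPM (median 107) untreated and from 79.5 to 123 CPM (median 112) under AO over the 10 lines. These ranges overlapped almost wholly. Its mean change was 0.0074 ± 0.083 (SE), adjusted p = 0.964, with a 95% interval of -0.16 to 0.18. The difference between the 3 light chains was not tested.

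Of the cationic carriers, Slc7a1 rose. Untreated lines had 270, 229.6 and 231 CPM in the WT lines, 239, 290, 104 and 212 in the het lines, and 172, 202 and 220.4 in the hom lines. AO-treated lines had 638, 630 and 631 CPM in the WT lines, 600.2, 701, 448 and 721 in the het lines, and 301, 650.1 and 727 in the hom lines. No AO value fell within the untreated range, though E1.4 under AO came close to it. The mean change was 1.47 ± 0.17 (SE), adjusted p = 2.73e-07.

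Slc7a3 was higher under AO in each of the 10 lines, running from 2.64 to 104 CPM (median 77.2) untreated and from 27.6 to 170 CPM (median 129.1) under AO. Its mean change of 0.85 ± 0.40 (SE) did not pass, at adjusted p = 0.109. It passed with the line as a block (0.94 ± 0.13 (SE), adjusted p = 8.2e-06) and without E2.6 (1.38e-05 for the adjusted p). In E2.6 it was measured from 22 counts untreated and 187 under AO, at 2.64 and 27.6 CPM, while the next lowest untreated line, E1.3, was at 55.5 CPM.

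The sodium-coupled glutamine carrier Slc38a2 had 479.8, 496 and 442 CPM in the WT lines, 499, 450.3, 322 and 396 in the het lines, and 439, 443 and 429 in the hom lines untreated. Under AO it had 771, 874 and 786 CPM in the WT lines, 774, 867, 626 and 921 in the het lines, and 689.9, 878 and 968 in the hom lines. Every AO line lay above the highest untreated line. The mean change of 0.89 ± 0.088 (SE) had one of the smallest errors among the 10 genes, with adjusted p = 4.24e-08.

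Slc1a4, the serine and alanine carrier, ran from 31.1 to 104 CPM (median 93.5) untreated and from 143 to 200.3 CPM (median 184) under AO. The ranges did not overlap, and E2.6 and E1.4 were the lowest AO lines. The mean change was 1.04 ± 0.17 (SE), adjusted p = 2.84e-05. Slc1a5, its relative with a preference for glutamine, ran from 54.8 to 126 CPM (median 106) untreated and from 72.8 to 158 CPM (median 136) under AO, with overlapping ranges and 9 of 10 lines higher. Its change of 0.36 ± 0.14 (SE) was the smallest that passed, at adjusted p = 0.0432. The call was lost on leaving out any 1 of lines E1.3, E1.5, E2.1, E2.2, E2.7, E2.8 and E2.9 (adjusted p = 0.0883 to 0.177), and the 95% interval was 0.081 to 0.65. With the line as a block the change of Slc1a5 was 0.37 ± 0.054 (SE), adjusted p = 1.02e-05.

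The glycine carrier Slc6a9 had 89.4, 92.3 and 94.7 CPM in the WT lines, 86.5, 97.8, 9.13 and 84.3 in the het lines, and 78.4, 85.6 and 82.6 in the hom lines untreated. Under AO it had 167, 172 and 193 CPM in the WT lines, 163, 173, 71.9 and 187 in the het lines, and 65, 196 and 151 in the hom lines. It was higher in 9 of 10 lines and lower in E1.4, and E2.6 and E1.4 under AO both lay below every untreated value of the other 8 lines. Averaged over genotypes it rose by 0.93 ± 0.32 (SE), adjusted p = 0.0257. The call was lost without any 1 of lines E1.5, E2.1, E2.2, E2.7, E2.8 and E2.9 (adjusted p = 0.0550 to 0.101), and without E2.6 and E1.4 together the change was 0.98 ± 0.073 (SE), adjusted p = 5.69e-09. Exons of Ccdc24 on the opposite strand share 27.8% of the exon bases of Slc6a9; the kit keeps strand, but the strand setting of the counting is not given in the sources used here. No exon of another gene overlapped those of the other 9 transporters in GENCODE vM21.

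**Figure D3:**
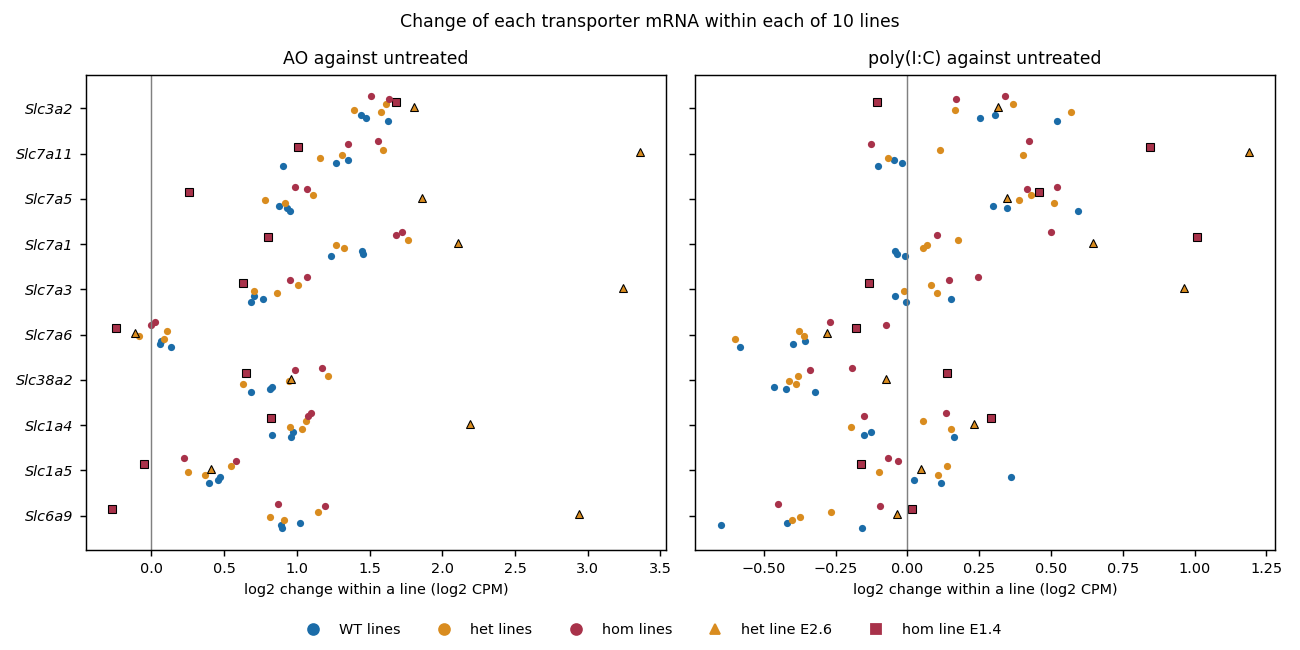
Log2 change of each transporter mRNA within each of 10 lines (points; WT, het and hom in blue, orange and red) under AO (left) and poly(I:C) (right), each against the same untreated library. Under AO nearly all points lie right of 0 except those of Slc7a6, with E2.6 (triangles) farthest right for 7 genes; under poly(I:C) all 10 points lie right of 0 for Slc7a5 and left of 0 for Slc7a6.

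In WT cells alone, Slc3a2, Slc38a2, Slc7a1 and Slc7a5 rose under AO, 4 of 10 against a background of 4.23%. In het cells 6 of 10 rose, those 4 with Slc7a11 and Slc1a4, against 6.17%. In hom cells 5 of 10 rose, namely Slc3a2, Slc38a2, Slc7a1, Slc7a11 and Slc1a4, against 7.36%, while Slc7a5 was at 0.81 ± 0.28 (SE) with adjusted p = 0.0563. The change of Slc3a2 was 1.51 ± 0.25 (SE) in WT, 1.57 ± 0.22 (SE) in het and 1.62 ± 0.25 (SE) in hom cells. That of Slc7a11 was 1.18 ± 0.45 (SE), 1.57 ± 0.39 (SE) and 1.37 ± 0.45 (SE), in the same order. The 3 counts share 1 estimate of the spread, so a line can alter the count of another genotype. Without het line E2.6, 9 of 10 passed in WT, against 5.55%, and 8 of 10 in hom cells, against 8.79%. With the line as a block 9 of 10 passed in WT, against 11.2%, 9 of 10 in het, against 12.8%, and 7 of 10 in hom cells, against 14.5%. Slc7a5 passed in hom cells with the block (adjusted p = 0.00232). Without E2.6 and E1.4, 9 of 10 passed in each genotype, against backgrounds of 12.1% in WT, 12.7% in het and 10.7% in hom cells. Leaving out WT line E1.5, E2.1 or E2.7 left 2, 1 and 1 of 10 in WT, against 1.04%, 0.823% and 0.890%. Leaving out E1.4, E1.5, E2.1, E2.2, E2.7 or E2.9 left 3 of 10 in hom cells, against 6.53%, 5.68%, 5.42%, 3.17%, 5.74% and 3.28%. Fitted on the compared groups alone, with fewer libraries to estimate the spread, 9 of 10 passed in WT, against 11.8%, and 0 of 10 in hom cells, against 0.00820%.

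**Figure D4:**
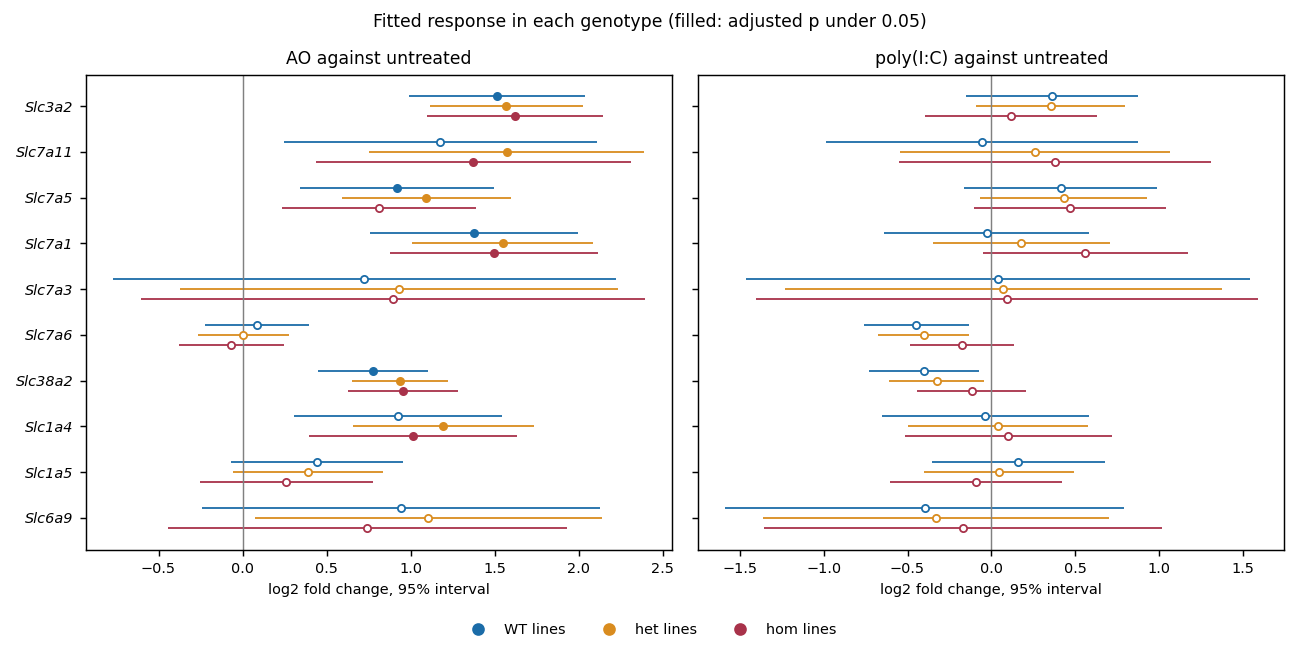
Fitted log2 change with its 95% interval for each transporter mRNA in WT (blue), het (orange) and hom (red) lines under AO (left) and poly(I:C) (right), filled where adjusted p is under 0.05. The 3 intervals of each gene overlap in both panels, and filled points occur in the AO panel alone: 4 in WT, 6 in het and 5 in hom lines.

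With poly(I:C) 3 of the 10 transporter mRNAs passed the test, a share near that of all genes. Averaged over the genotypes, Slc7a5 rose, 1 of 10 against a background of 9.91% of genes higher, and Slc7a6 and Slc38a2 fell, 2 of 10 against 11.8% lower. The median log2 change of the 10 genes was 0.053, and that of all genes was -0.00095. Slc7a5 under poly(I:C) had 455, 415 and 424 CPM in the WT lines, 429, 441, 170 and 423 in the het lines, and 434, 384 and 469.8 in the hom lines. It was higher in 10 of 10 lines than in the same line untreated. Its mean change was 0.44 ± 0.15 (SE), adjusted p = 0.0434, and the call was lost on leaving out any 1 line other than E2.6 (adjusted p = 0.0565 to 0.142). With the line as a block it was 0.44 ± 0.097 (SE), adjusted p = 0.00147.

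Slc7a6, which did not pass under AO, had 109, 118 and 91.7 CPM in the WT lines, 106, 121, 85.9 and 104 in the het lines, and 107, 108 and 114 in the hom lines untreated. Under poly(I:C) it had 72.5, 89.6 and 71.6 CPM in the WT lines, 69.6, 94.5, 70.6 and 79.6 in the het lines, and 94.3, 102 and 94.2 in the hom lines. Each line was lower under poly(I:C) than untreated, with overlapping ranges across lines. The mean change was -0.34 ± 0.084 (SE), adjusted p = 0.00450, and it passed on leaving out each line in turn. Slc38a2 ran from 322 to 499 CPM (median 442) untreated and from 304 to 483 CPM (median 360.2) under poly(I:C), and was lower in 9 of 10 lines, with E1.4 the exception. Its mean change was -0.28 ± 0.087 (SE), adjusted p = 0.0221, a call lost without E1.5, E2.1, E2.2, E2.5, E2.7 or E2.9 (adjusted p = 0.0539 to 0.0819). With the line as a block Slc38a2 changed by -0.28 ± 0.073 (SE), adjusted p = 0.0049.

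The heavy chain Slc3a2 ran from 151 to 392 CPM (median 279.9) untreated and from 188 to 388 CPM (median 358) under poly(I:C), and was higher in 9 of 10 lines. Its change of 0.28 ± 0.14 (SE) did not pass, at adjusted p = 0.164. With the line as a block it was 0.29 ± 0.058 (SE), adjusted p = 0.000566, so that 2 of 10 were higher, against 19.7%, and 2 of 10 lower, against 19.6%. It also passed without E2.6 (adjusted p = 0.0231). Slc6a9 was at -0.30 ± 0.32 (SE) with 9 of 10 lines lower and adjusted p = 0.578. Without E2.6 and E1.4 it passed at -0.34 ± 0.074 (SE), adjusted p = 0.00141, and the counts were then 2 higher, against 18.9%, and 3 lower, against 19.6%. Slc7a11, Slc7a1, Slc7a3, Slc1a4 and Slc1a5 did not pass in any of these fits. Their mean changes were 0.19 ± 0.25 (SE), 0.24 ± 0.16 (SE), 0.068 ± 0.40 (SE), 0.034 ± 0.17 (SE) and 0.038 ± 0.14 (SE). In Slc7a11 the lines disagreed: 5 were higher and 5 lower, with E2.6 and E1.4 the highest at 1.19 and 0.84.

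Within a single genotype no transporter passed under poly(I:C): 0 of 10 in WT, against 3.17% of genes in either direction, 0 of 10 in het, against 4.63%, and 0 of 10 in hom cells, against 1.26%. At an unadjusted p under 0.05 there were 2, 2 and 0 of 10, against 16.7%, 17.7% and 11.9% of all genes. With the line as a block, Slc3a2, Slc38a2 and Slc7a6 passed in WT, 3 of 10 against 15.5%. In het cells Slc3a2 and Slc7a6 passed, 2 of 10 against 17.7%, and in hom cells 0 did, against 9.53%. DESeq2 gave 0 in each genotype, against 2.64%, 3.47% and 1.39% of the genes it tested. Without E2.6 and E1.4, Slc3a2, Slc7a5, Slc7a6, Slc38a2 and Slc6a9 passed in WT and in het cells. In hom cells Slc7a5 passed in that fit. The share of all genes past the threshold in single genotypes is not given for it.

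Set directly against poly(I:C), AO gave higher levels of 5 of 10 transporters in WT, against a background of 9.85%, 7 of 10 in het, against 10.4%, and 4 of 10 in hom cells, against 10.1%. The 4 genes that passed in each genotype were Slc3a2, Slc7a1, Slc38a2 and Slc1a4. Slc38a2 differed by 1.18 ± 0.16 (SE) in WT (adjusted p = 2.53e-05), where each line was above its untreated level under AO and below it under poly(I:C). With the line as a block all 10 passed in WT, Slc7a6 included at 0.53 ± 0.095 (SE), adjusted p = 0.000207, against 17.4%. In het cells Slc7a5, Slc7a3 and Slc1a5 also passed with the block (adjusted p = 0.00062, 0.00068 and 0.0030). The share of all genes is not given for that het fit. In hom cells 7 of 10 passed with the block, against 16.2%, but 0 of 10 with the compared groups fitted alone, against 0.222%. The responses to AO and to poly(I:C) share their untreated libraries, so no agreement between those responses is given as a result.

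No transporter mRNA passed the test between genotypes. For hom against WT, 0 of 10 passed untreated, against 0.0150% of genes, 0 of 10 under poly(I:C), against 0.187%, and 0 of 10 under AO, against 0%. For het against WT, 0 of 10 passed in each treatment, against 0% in each. The hom minus WT log2 differences ran from -0.44 to 0.16 untreated, -0.17 to 0.32 under poly(I:C) and -0.37 to 0.27 under AO. Their 95% intervals untreated were widest for Slc7a3, at -1.46 to 1.53, and narrowest for Slc7a6, at -0.27 to 0.35, and differences within them were not detectable with these lines. Without E2.6 and E1.4 the interval of Slc7a3 was -0.47 to 0.52. Without these lines 0 of 10 passed in each of the 6 comparisons, against 0.127% of genes for hom against WT under poly(I:C) and 0% for the other 5. Of the 6 comparisons, 1 value had an unadjusted p under 0.05: Slc7a6 in hom against WT under poly(I:C), 0.32 ± 0.15 (SE), adjusted p = 1. That count is given without the share of all genes at the unadjusted level. DESeq2 also called 0 of 10 in each of these comparisons, against 0.121% of genes for untreated hom against WT, 0.409% with poly(I:C) and 0.140% with AO, and 0% for het against WT.

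No difference in the size of a response between genotypes passed the test either. The difference of the AO response, hom minus WT, ran from -0.20 to 0.20 on the log2 scale over the 10 genes, and het minus WT from -0.08 to 0.39. For poly(I:C) the differences ran from -0.25 to 0.59 and -0.12 to 0.32. In all 4 tests 0 of 10 passed at the adjusted threshold, against a background of 0% of all genes. The same held with DESeq2 and without E2.6 and E1.4, where 0 of 10 passed too. At an unadjusted p under 0.05 there were 0 of 10 as well, a count given without its share of all genes. Slc7a1 was lower under poly(I:C) in all 3 WT lines (the lowest by -0.043 on the log2 scale, the others by -0.038 and -0.0076) and higher in all 4 het and all 3 hom lines. The test of that difference, hom minus WT, gave 0.59 ± 0.42 (SE), adjusted p = 1, and 0.62 ± 0.30 (SE), adjusted p = 0.814 with the line as a block. Slc1a5 under poly(I:C) was higher in all 3 WT lines (by 0.021 to 0.36) and lower in all 3 hom lines (by -0.031 to -0.16). The test of that difference gave -0.25 ± 0.35 (SE), adjusted p = 1. Both genes were picked from the 10 by the signs of their changes. How many of all genes show such opposite signs was not counted.

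Among the het lines, E2.6 stood lowest. It was the lowest of the 10 lines for 10 of 10 transporters untreated, 8 of 10 under poly(I:C) and 5 of 10 under AO. Over all genes tested, untreated E2.6 was the lowest or highest line for 33.2%. The share of all genes with E2.6 lowest was not counted in any treatment, so these counts are descriptions of this line. Untreated, the median of the other het lines exceeded E2.6 by 29.8-fold for Slc7a3, 9.47-fold for Slc6a9, 6.43-fold for Slc7a11 and 3.02-fold for Slc1a4, but by 1.23-fold for Slc7a6. Under AO the same ratios were 5.77, 2.40, 1.503, 1.34 and 1.41. Hom line E1.4 under AO stood at 0.374 of the median of the other hom lines for Slc6a9, 0.436 for Slc7a1, 0.466 for Slc7a11 and 0.601 for Slc7a5, and at 1.53 for Slc3a2. From untreated to AO in E2.6 the macrophage marker sum went from 44.1 to 26.9 CPM and the chondrocyte sum from 221 to 184. The endothelial sum, mostly Kdr in this line, went from 21.5 to 33.7 CPM. The part of these sums in the transporter levels was not tested.

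Cell density went with 4 of the transporters in WT line E1.5, in a fit of its 9 libraries with terms for treatment and density. Slc6a9, Slc1a5, Slc7a3 and Slc7a11 were higher at high than at low density, 4 of 10 against a background of 8.98% of 12491 genes tested. Each condition is 1 library, so the error comes from what the treatment and density terms leave over, and separate cultures are not stated. Slc7a11 was at 62.6 against 85.8 CPM untreated, 62.7 against 82.8 under poly(I:C) and 129.1 against 155 under AO. The low-density library was the lower one in each treatment. The density difference was 0.37 ± 0.067 (SE), adjusted p = 0.00145.

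Slc1a5 was at 99.8 against 120 CPM untreated, 91.2 against 122 under poly(I:C) and 112 against 165 under AO at low against high density. Again high density was higher in each treatment, and the difference was 0.41 ± 0.07 (SE), adjusted p = 0.000874. For Slc7a3 it was 0.38 ± 0.068 (SE), adjusted p = 0.00142, and for Slc6a9 0.43 ± 0.084 (SE), adjusted p = 0.00257, where the call was lost without the untreated libraries (adjusted p = 0.0675). The heavy chain Slc3a2 was at 264 against 283 CPM untreated, 352 against 375 under poly(I:C) and 843 against 840.1 under AO, with the 2 densities close together in each treatment. Its difference was 0.061 ± 0.052 (SE), with a 95% interval of -0.049 to 0.17. Slc7a5, Slc7a1, Slc38a2, Slc7a6 and Slc1a4 did not pass, with Slc1a4 at 0.14 ± 0.069 (SE), adjusted p = 0.190. Depth moved with density, as given above, and its part was not tested.

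**Figure D5:**
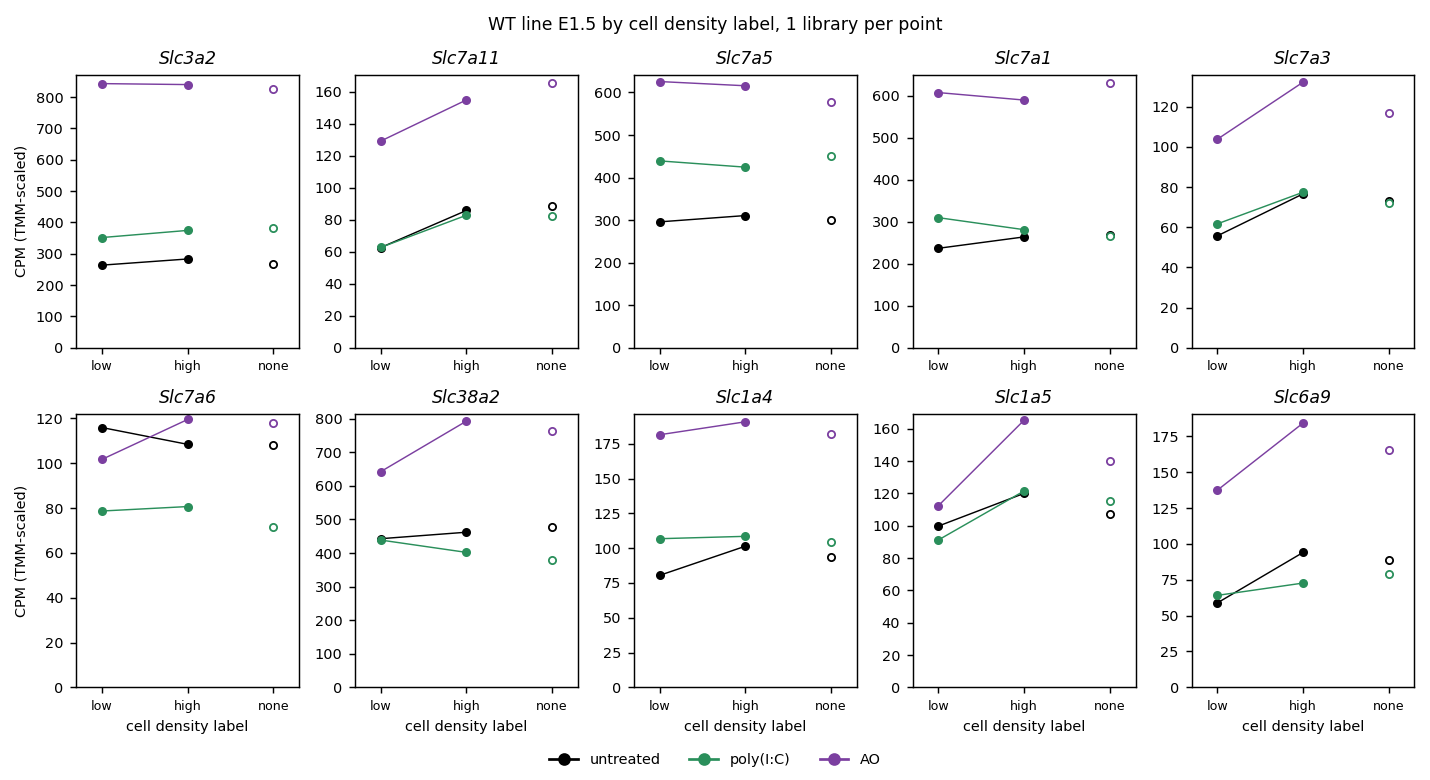
mRNA level (CPM scaled by TMM, linear axis from 0) of the 10 transporters in WT line E1.5 at low and high cell density (filled, joined) and without a density label (open), untreated (black), under poly(I:C) (green) and under AO (purple), 1 library per point. The joined points rise in all 3 treatments for Slc7a11, Slc7a3, Slc1a5, Slc6a9 and Slc1a4, the last of which did not pass the density test. At each density label the AO point is the highest of the 3 treatments for each gene, except for Slc7a6 at low density, where the untreated point is highest.

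The other genes of the pathway were counted from 3 lists. Of 33 ATF4 pathway regulators and further targets, 23 rose and 3 fell under AO on average over genotypes, with a median log2 change of 0.78. As background for this and the next lists, 17% of all genes rose and 16.7% fell under AO (23.5% and 26.7% with the line as a block), 9.91% rose and 11.8% fell under poly(I:C) (19.7% and 19.6% with the block), and 8.98% were higher and 8.60% lower at high density. Ppp1r15a, which leads eIF2 dephosphorylation, changed by 2.41 ± 0.15 (SE), the transcription factors Atf3 and Ddit3 by 2.65 ± 0.26 and 1.93 ± 0.21, and the stress cytokine Gdf15 by 3.17 ± 0.35, from 1.10 to 9.81 CPM. Under poly(I:C) 4 of the 33 rose and 3 fell (11 and 6 with the line as a block). There Atf3 changed by 2.23 ± 0.26 and Eif2ak3, an eIF2 kinase of the endoplasmic reticulum, by -0.77 ± 0.11. At high against low density in E1.5, 11 of the 33 were higher and 1 lower.

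Of 39 other amino acid transporters 19 were abundant enough to be tested, and under AO 3 rose and 5 fell, with a median of 0.14. Slc38a7, a lysosomal glutamine and asparagine carrier, rose by 0.94 ± 0.099 and Slc38a1, a relative of Slc38a2, by 0.47 ± 0.12. Slc38a10 and Slc38a6 changed by -0.32 ± 0.08 and -0.36 ± 0.093. Under poly(I:C) 1 rose and 4 fell (4 and 6 with the line as a block), among them Slc38a9, an arginine sensor of the lysosome, at -0.76 ± 0.12 and Slc36a1 at -0.62 ± 0.15. At high density 1 of 17 tested was higher and 2 were lower.

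Of 20 NRF2 targets and genes of glutathione synthesis, the supply line that cystine import by Slc7a11 feeds, 5 rose and 4 fell under AO (9 and 5 with the line as a block), with a median of 0.12. Hmox1, which degrades heme, changed by 2.76 ± 0.18, the thioredoxin reductase Txnrd1 by 0.73 ± 0.098, Nfe2l2, the NRF2 gene itself, by 0.66 ± 0.093, and G6pdx of the pentose phosphate pathway by -0.65 ± 0.082. Under poly(I:C) 3 rose and 1 fell (8 and 1 with the line as a block), and Pgd and Tkt of the pentose phosphate pathway changed by 0.40 ± 0.061 and 0.36 ± 0.093. At high density 3 of 20 were higher and 0 lower. The lists differ in size and were chosen knowing earlier results, so their counts are descriptions.

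As a description of likeness, Pearson's r of log2 CPM was taken over the 30 libraries, which share treatments and lines. The genes most like Slc3a2 were Siah2 (0.983), Yars (0.982) and Gadd45a (0.969). Those most like Slc7a11 were Xpot (0.962), Slc1a4 (0.949) and Slc7a1 (0.943), both of the last being transporters of the set. Slc7a5 was nearest to Aars (0.960), Bcat1 (0.949) and Eprs (0.936), Slc7a1 to Rhbdd1 (0.9751), Usp36 (0.948) and Kansl3 (0.945), and Slc38a2 to Rnf11 (0.964), Mtfr1 (0.959) and Samd8 (0.957). Slc1a4 was nearest to Cebpg (0.976), Ciart (0.955) and Mthfd2 (0.955). Slc7a3 and Slc6a9 shared Aldh1l2 and Aldh18a1: Slc7a3 was nearest to Adm2 (0.963), Aldh1l2 (0.923) and Aldh18a1 (0.921), Slc6a9 to Aldh18a1 (0.948), Mei4 (0.940) and Aldh1l2 (0.934), and Slc1a5 to Slc7a3 (0.921), Agap1 (0.916) and Wars (0.912). Without E2.6 and E1.4, over 24 libraries, r between Slc7a3 and Aldh1l2 was 0.691 in place of 0.923. Slc7a6 had the weakest best match, Elf2 (0.869), and its r with the heavy chain Slc3a2 was 0.321, against 0.821 for Slc7a11 and 0.832 for Slc7a5.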

How the data were processed

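RNA was extracted from the fibroblasts, and stranded mRNA libraries were made from 500 ng of total RNA, per the labels' protocols. The values are expected counts per gene, which the authors deposited for 36 libraries. The submitters' processing notes name STAR, RSEM and mm10; for the annotation release and the strand setting, nothing is given in the sources used here. Between 6.11% and 13.4% of all values in a library, zeros included, were not whole, and all were rounded to whole numbers. No column belonged to another sample.

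The 30 libraries without a density label were fitted in 9 groups of genotype and treatment with edgeR 4.0.16 (R 4.3.3): TMM scaling, filterByExpr with a minimum count of 10 and a minimum total of 15, robust dispersions, glmQLFit and glmQLFTest, and Benjamini-Hochberg adjustment over the 13364 genes tested. The SE is the log2 fold change over the square root of F, and intervals are at 95%. The density fit used the 9 libraries of line E1.5 with treatment and density terms over 12491 genes, so its CPM differ slightly from those of the larger fit. CPM are TMM-scaled, and within-line changes add a prior count of 2. Exon lengths are unions from GENCODE vM21. Libraries of the same group differed by more than counting noise, with a chi-square per degree of freedom of 5.34 to 60.7, so none was treated as a repeat. The deviations of libraries of 1 line from their group means correlated at 0.342 to 0.765 in each of 30 pairs, so the line names, taken from the sample titles, pair the treatments, and fits with the line as a block are given beside results whose call they change. The fit was also run on simulated counts of independent libraries with no line effect, so that run does not bear on the pairing of lines.

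The genes and lists were chosen with earlier results of these data known. Named from each list were the 4 genes with the smallest p under AO and the 2 under poly(I:C), and for each transporter the 3 genes with the highest Pearson r. Alternatives were RLE factors, no filter on low counts, DESeq2 1.42.0, limma-voom (limma 3.58.1) with the line as a random effect, a covariate for the leading number of each line name (E1 or E2), fits of the compared groups alone and each line left out; leaving out E2.6 and E1.4 together was chosen after seeing the data.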

Additional observations from a re-analysis of the deposited data

Results flagged for a closer look

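In 6 of the 30 het groups of 4 lines (10 genes in 3 treatments), 1 line lay farther from the rest than Dixon's 95% critical value for groups of 4 allows, a gap that chance gives in about 1 in 20 groups. All 6 were het line E2.6, below the other het lines. Untreated, it had Slc1a4 at 31.1 CPM and Slc6a9 at 9.126 CPM. Under poly(I:C) it had the heavy chain Slc3a2 at 187.6 CPM, Slc7a5 at 170 CPM and Slc6a9 at 8.888 CPM. Under AO it had Slc7a6 at 79.45 CPM. The 6 values come from 3 libraries of 1 line and are not independent of each other.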

How the results depend on the processing

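Of 2050 values of single transporters under other settings, 1767 kept their direction and side of the threshold, 135 newly passed, 116 no longer passed and 32 changed sign, all 32 being values that had not passed. Counts of transporters past the threshold under AO in WT (4) were 9 with the line as a replicate block, 7 with limma-voom, 9 with the compared groups alone, 9 without E2.6 and E1.4, and 1 to 9 on leaving out 1 line. Under AO in hom cells (5) they were 3 with no filter on low counts, 0 with the compared groups alone, 9 without E2.6 and E1.4, and 3 to 8 on leaving out 1 line. Under poly(I:C) in WT (0) they were 3 with the block, 2 with limma-voom, 4 with the compared groups alone, 5 without both lines, and 0 to 1 on leaving out 1 line. In het cells (0) they were 2 with the block, 2 with limma-voom, 5 without both lines and 0 to 1 on leaving out 1 line, and in hom cells (0) 1 without both lines. For the mean over genotypes under poly(I:C) (3) they were 5 without both lines and 1 to 4 on leaving out 1 line. For AO against poly(I:C) in WT (5) they were 10 with the block, 10 with the compared groups alone, 10 without both lines and 3 to 9 on leaving out 1 line. In het cells (7) they were 4 with the compared groups alone and 4 to 10 on leaving out 1 line. In hom cells (4) they were 2 with no filter, 7 with the block, 0 with the compared groups alone, 9 without both lines and 2 to 8 on leaving out 1 line. The compared groups alone have fewer libraries to estimate the spread; the cause of these moves was not tested. The share of all genes past the threshold moved with the setting too. Higher under AO in WT were 4.23% as first fitted, 11.2% with the block, 11.8% with the compared groups alone and 12.1% without both lines. Several counts here are given without their share of all genes, so they describe the settings and are not results about the transporters. In the settings run for them, the counts for genotype and for response differences were 0 throughout, and that for density (4) was 3 or 4. With the block, 9 transporters passed under AO in het, against 12.8% of all genes, and 7 in hom cells, against 14.5%. In AO against poly(I:C) in het cells 10 passed with the block. For the means over genotypes the block changed only the calls given in the report. Slc1a5 and Slc6a9 under AO (mean over genotypes) also lost their calls with no filter, at adjusted p = 0.0782 and 0.0711.

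Signs changed in values near 0, on the log2 scale. Slc7a6 under AO was -6.462e-05 with limma-voom and -0.03428 to 0.03176 on leaving out 1 line in het cells, 0.01337 without both lines in hom cells, and -0.002899 with no filter and -0.02273 to 0.02048 on leaving out 1 line for the mean. On leaving out 1 line, Slc7a3 under poly(I:C) in WT ran from -0.03595 to 0.07469. Slc1a4 under poly(I:C) ran from -0.1342 to 0.01001 in WT, -0.00737 to 0.1278 in het, -0.002625 to 0.212 in hom and -0.006842 to 0.0639 for the mean, which was -0.007348 without both lines. Slc7a6 in AO against poly(I:C) in hom cells ran from -0.01029 to 0.1742. For density, Slc7a5 was 0.00439 with no filter, 0.02397 without the poly(I:C) libraries and 0.01571 without the AO libraries, Slc7a1 was 0.05498 and 0.009634 without these, and without the AO libraries Slc7a6 was -0.02872 and Slc38a2 -0.02857. Depth limited the lowest values most: Slc7a3 rested on 22 counts in untreated E2.6.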
